A study of Mus musculus with 10 samples.

Results

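Cd81, Fcrls, Axl and Id3 are 4 mouse genes whose log ratios were high in tumour-associated macrophages over peritoneal macrophages when both were untreated. They were taken as the features whose only gene symbol in the platform table is one of these names. Each gene had 1 feature (Entrez Gene 12520 for Cd81, 80891 for Fcrls, 26362 for Axl and 15903 for Id3), so they are 4 of the 6795 named genes on an array of 9596 features. The genes were chosen by their high log ratios on the untreated arrays, so their values there are given as a description with no test. The other comparisons used other hybridisations and were tested.

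The data are 10 hybridisations of spotted mouse cDNA, each with total RNA of 2 conditions in the 2 colours of 1 array. The cells were adherent cells of C57/6N mice aged 8 weeks, either tumour-associated macrophages (TAM), taken 3 weeks after a tumour was implanted, or peritoneal exudate cells (PEC). Both were used untreated or after 4 hours with 100 ng/mL lipopolysaccharide (LPS). LPS is the bacterial cell wall component that activates macrophages through Toll-like receptor 4. The comparison of TAM with PEC was made with LPS in both on 2 arrays (TAM1 and TAM7), and without it on 4 (TAM-8, TAM-b, TAM-3 and TAM-2R). TAM with LPS were set against untreated TAM on 2 arrays (TAM-trial and TAM-16), and PEC with LPS against untreated PEC on 2 (PEC1 and PEC2). The tumour line is not given in the sources used here. Whether the arrays of a comparison had RNA of different animals or cultures is not in the labels, so the p-values cover array-to-array spread alone, part of which may be technical. Both cell types were whole adherent preparations, so more cells of one type and more RNA per cell cannot be told apart.

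CD81 is a tetraspanin, a membrane protein with 4 transmembrane passes that gathers integrins and other partners into microdomains. Fcrls is a scavenger receptor of the Fc receptor-like family, best known in mice as a marker of microglia, the resident macrophages of the brain. AXL is a receptor tyrosine kinase of the TAM receptor family (Tyro3, Axl and Mertk, a name unrelated to tumour-associated macrophages). It binds GAS6 that bridges it to phosphatidylserine on dying cells, and in macrophages and dendritic cells its signalling restrains Toll-like receptor responses. ID3 is a helix-loop-helix protein with no DNA-binding region. It holds E proteins such as the product of Tcf3 away from their E-box sites, is a classic target of BMP and SMAD signalling, and is needed for Kupffer cells, the resident macrophages of the liver, in mice.

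The promoter windows of the 4 genes are shown because the genes were high on the same arrays. Each runs from 250 bases before to 50 bases after the start site in RefSeq on GRCm38.p6, and all 4 genes were matched there. Cd81 lies at chr7:143052500-143052799 on the plus strand, Fcrls at chr3:87263475-87263774 on the minus strand, Axl at chr7:25788684-25788983 on the minus strand and Id3 at chr4:136143572-136143871 on the plus strand. For Fcrls and Axl the start site used lies 241 and 191 bases inside the annotated edge of the gene. Capitals mark 2 promoter motifs, TATAAA (the letters bound by TBP in a TATA box) and GGGCGG (the GC box, bound by Sp1 family proteins). Both were looked for on both strands and anywhere in the window.
Cd81: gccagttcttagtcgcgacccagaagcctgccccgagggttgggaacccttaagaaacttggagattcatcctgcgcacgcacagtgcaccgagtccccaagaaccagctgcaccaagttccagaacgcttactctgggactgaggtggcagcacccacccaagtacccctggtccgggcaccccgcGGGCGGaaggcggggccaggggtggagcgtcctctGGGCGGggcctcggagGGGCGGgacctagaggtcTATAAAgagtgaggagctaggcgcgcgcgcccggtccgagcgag
Fcrls: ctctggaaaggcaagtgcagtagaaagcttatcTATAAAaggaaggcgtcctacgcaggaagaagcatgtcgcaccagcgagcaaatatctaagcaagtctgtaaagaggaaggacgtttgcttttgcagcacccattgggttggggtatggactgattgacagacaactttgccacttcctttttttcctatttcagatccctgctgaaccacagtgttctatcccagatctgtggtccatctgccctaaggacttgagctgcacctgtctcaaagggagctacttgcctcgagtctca
Axl: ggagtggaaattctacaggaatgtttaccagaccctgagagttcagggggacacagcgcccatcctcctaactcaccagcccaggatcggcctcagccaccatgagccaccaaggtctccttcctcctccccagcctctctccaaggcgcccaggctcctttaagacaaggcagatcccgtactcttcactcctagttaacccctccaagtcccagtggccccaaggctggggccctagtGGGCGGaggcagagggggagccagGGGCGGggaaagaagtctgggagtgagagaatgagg
Id3: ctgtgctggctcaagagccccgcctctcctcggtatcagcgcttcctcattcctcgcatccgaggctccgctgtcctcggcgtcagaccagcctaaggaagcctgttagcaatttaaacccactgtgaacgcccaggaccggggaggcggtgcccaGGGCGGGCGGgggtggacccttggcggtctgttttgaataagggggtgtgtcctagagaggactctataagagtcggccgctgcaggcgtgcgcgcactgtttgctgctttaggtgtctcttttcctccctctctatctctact

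GGGCGG stood in the windows of Cd81 (3 matches), Axl (2 matches) and Id3 (2 overlapping matches) and not in that of Fcrls. Of 32851 mouse promoters of the same length, 35.7% held it. TATAAA stood in those of Cd81 and Fcrls with 1 match each, against 13.6% of all promoters. Counted from the start site used, the match began at 6, after the start, in Cd81 and at -217 in Fcrls. Whether either works as a TATA box was not tested. The E-box CANNTG, the kind of site that ID proteins keep E proteins from, stood in those of Cd81 (1 match) and Fcrls (3 matches), against 72.3% of all promoters. TTCNNNGAA, the form bound by STAT factors, was in 0 of the 4 windows and 8.3% of all promoters. The GC content was 65.7% for Cd81, 60.3% for Axl, 60.0% for Id3 and 48.0% for Fcrls, against a median of 52.7% over all promoters. A match is a run of letters and not a measured binding site.

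Values are log2 ratios as deposited, so 1 unit is a doubling, and they hold no expression level. The dyes are not named in the sources used here. Channel 2 was read over channel 1, and TAM-2R and TAM1, whose channels the labels give in the opposite order, were turned. The direction was set by 28 measured LPS response genes, whose median was then 1.76 on PEC1 and 2.73 on PEC2, and it is therefore likely rather than stated. Arrays of 1 comparison correlated only weakly across features (Pearson r from 0.036 to 0.329). With the other 3 untreated arrays, TAM-2R had r from 0.036 to 0.101 and TAM-3 from 0.036 to 0.08. The array medians ran from -0.199 to 0.067, and from 4.39% to 49.1% of an array's variance followed the feature's place within blocks of 96 numbers, highest on TAM-b. All values below carry the limits of these arrays, whose number sets the precision.

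In untreated cells all 4 genes were above 0 on all 4 arrays. Cd81 had log2 ratios of TAM over PEC of 3.07 on TAM-b, 3.48 on TAM-2R, 3.78 on TAM-3 and 3.25 on TAM-8. As deposited, these values lay close together, with a mean of 3.39 ± 0.31 (SD, n = 4), a 10.5-fold ratio. This was the second highest mean (rank 2) of the 8905 genes and features tested. Less the median of the features at the same place, Cd81 was at 2.5 on TAM-b, 4.9 on TAM-2R, 3.8 on TAM-3 and 3.33 on TAM-8. Those values lay further apart. Cd81 stood at the 97.4th percentile or higher of each of these arrays.

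Fcrls had log2 ratios of 1.76 on TAM-b, 3.42 on TAM-2R, 4.10 on TAM-3 and 2.57 on TAM-8. The mean was 2.96 ± 1.02 (SD, n = 4), a 7.8-fold ratio at rank 8, with TAM-3 high and TAM-b low. Fcrls stood at the 87.8th percentile of TAM-b and at the 98.2nd or higher of the others.

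Id3 had log2 ratios of 1.93 on TAM-b, 3.55 on TAM-2R, 2.84 on TAM-3 and 1.51 on TAM-8. Its mean was 2.46 ± 0.91 (SD, n = 4), a 5.49-fold ratio at rank 34. On TAM-8 the median of the features at the same place as Id3 was 0.816, which leaves 0.697 of the ratio there.

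Axl had log2 ratios of 1.71 on TAM-b, 3.14 on TAM-2R, 2.58 on TAM-3 and 1.31 on TAM-8. Its mean was 2.18 ± 0.83 (SD, n = 4), a 4.54-fold ratio at rank 62. The features at Axl's place had a median of 1.11 on TAM-b, which leaves 0.605 there. The order of the means was Cd81, Fcrls, Id3 and Axl, and the array ranges of all neighbours in that order overlapped. Over the whole array 41 of 8905 genes and features (0.46%) passed an adjusted p of 0.05 in this comparison, in limma with Benjamini-Hochberg adjustment. Cd81, Fcrls, Id3 and Axl are counted among them. As they were chosen on these arrays, that is no test of them.

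**Figure D1:**
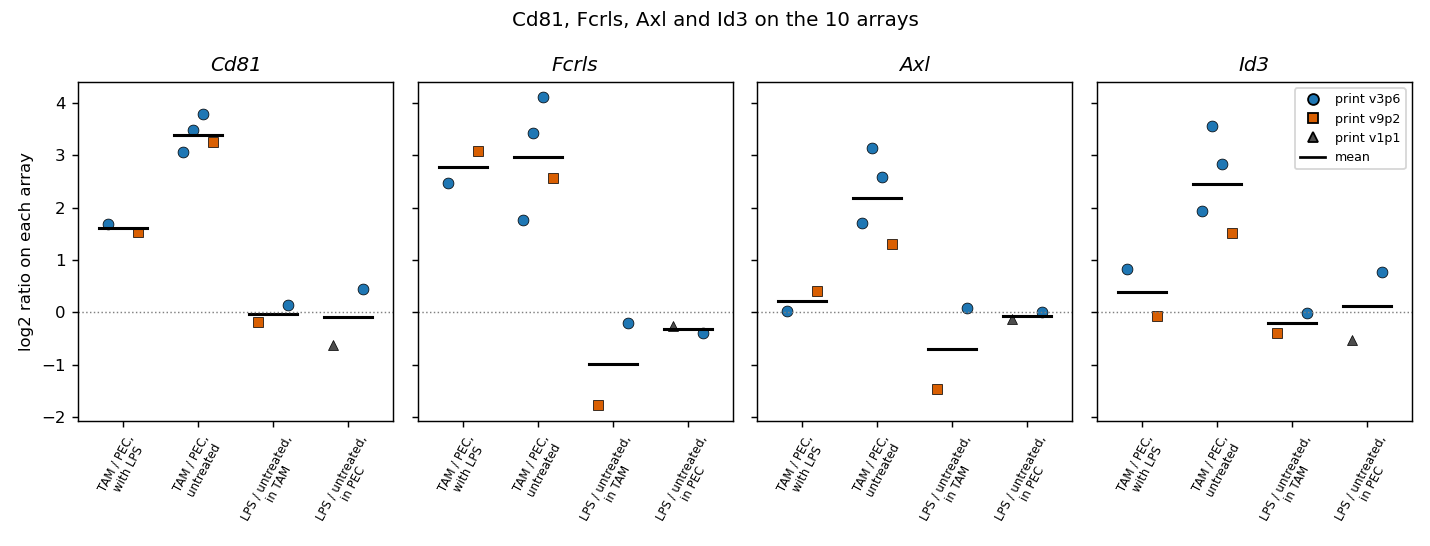
Log2 ratio (vertical axis) of Cd81, Fcrls, Axl and Id3 on each of the 10 arrays, by comparison; points are arrays, their shape and colour give the print version, and bars are means. All 4 genes lie above 0 on the 4 untreated arrays of TAM over PEC, while with LPS Cd81 and Fcrls lie above 1.5 and Axl and Id3 between -0.065 and 0.828.

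Did the genes stay high when both cell types had been given LPS? On TAM1 and TAM7, where both cell types had LPS, Cd81 and Fcrls again had log ratios above 1.5, while those of Axl and Id3 ran from -0.07 to 0.83. None of the 4 genes passed the threshold over all genes, and 6 of 8905 genes and features did (0.0674%).

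Fcrls had log2 ratios of 2.47 on TAM1 and 3.08 on TAM7. Both lie inside its untreated range, and they stood at the 99.3rd and 98.8th percentile of their arrays. The mean of 2.78 ± 0.44 (SD, n = 2) is a 6.85-fold ratio, with a 95% confidence interval of 1.45 to 4.10, a p of 0.000919 and an adjusted p of 0.149 in limma. Its mean ranked 37 of 8905.

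Cd81 had log2 ratios of 1.68 on TAM1 and 1.53 on TAM7. Both lie below all 4 of its untreated values, and they stood at the 98.5th and 91.6th percentile. The mean of 1.60 ± 0.11 (SD, n = 2) is a 3.04-fold ratio, with a 95% confidence interval of 0.68 to 2.53, a p of 0.0031 and an adjusted p of 0.242 in limma. At an unadjusted p under 0.05, 2 of the 4 genes (Fcrls and Cd81) were higher in TAM, against 185 of 8905 genes and features (2.08%).

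Id3 had log2 ratios of 0.83 on TAM1 and -0.07 on TAM7, so the arrays differed in sign. Its mean was 0.38 ± 0.63 (SD, n = 2), with a 95% confidence interval of -0.88 to 1.64 and an adjusted p of 1 in limma. Axl had log2 ratios of 0.02 on TAM1 and 0.41 on TAM7, with a mean of 0.22 ± 0.27 (SD, n = 2), a 95% confidence interval of -0.99 to 1.42 and an adjusted p of 1 in limma. Both values of Axl and both of Id3 lie below all 4 of the untreated values of the same gene, as those of Cd81 do. This held for 3 of the 4 genes, which were chosen for high untreated values, and for 9.25% of all genes and features. The upper bounds of the intervals still allow a ratio of Axl or Id3 above 1 log2 unit. The fit shares its estimate of the spread with the untreated arrays on which the genes were picked. Without those 4 arrays the adjusted p was 0.125 for Fcrls and 0.252 for Cd81.

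Whether Fcrls passed the threshold depended on how the arrays were treated. With each array scaled to 1 spread, Fcrls was at 3.46 with an adjusted p of 0.0162, and with place medians subtracted it was at 2.93 with an adjusted p of 0.0364. Cd81 passed in neither, with adjusted p of 0.0643 and 0.309. If TAM1 is read as its channels stand, its values take the other sign, and the means were 0.31 for Fcrls and -0.08 for Cd81.

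**Figure D2:**
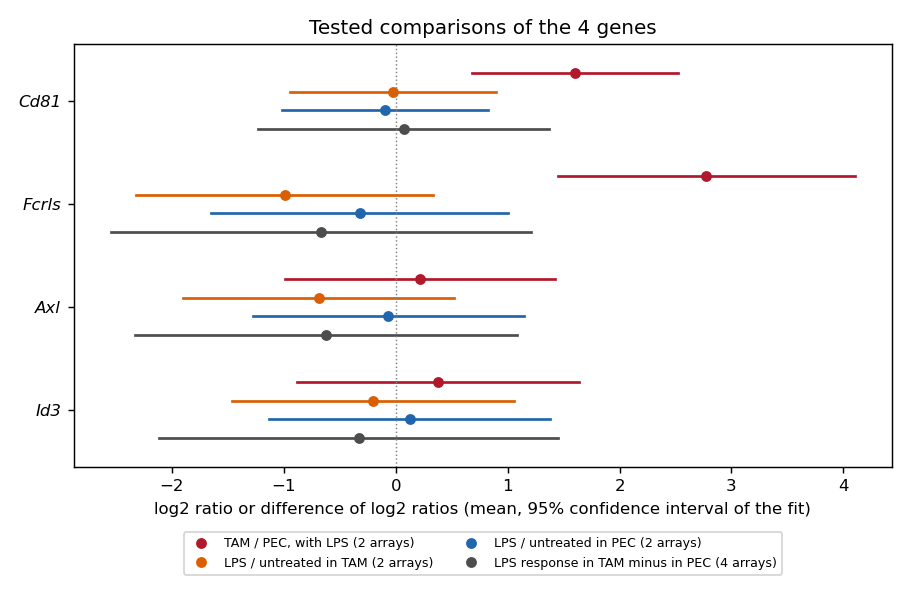
Mean log2 ratio or difference of log2 ratios (horizontal axis) of the 4 genes in the tested comparisons, with the 95% confidence intervals of the fit as lines. Only the intervals of Cd81 and Fcrls for TAM over PEC with LPS leave out 0 among those drawn, and neither gene passed the adjusted threshold.

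Next, LPS was set against no treatment within each cell type. In TAM, Fcrls had log2 ratios of LPS over untreated of -1.77 on TAM-trial and -0.21 on TAM-16. Both were below 0, but they lay far apart: the mean was -0.99 ± 1.10 (SD, n = 2), with a 95% confidence interval of -2.32 to 0.34 and an adjusted p of 0.842 in limma. For Axl the values were -1.47 on TAM-trial and 0.09 on TAM-16, with a mean of -0.69 ± 1.10 (SD, n = 2), a 95% confidence interval of -1.90 to 0.52 and an adjusted p of 0.889 in limma. Only TAM-trial gave a low value for these 2 genes. It was printed as v9p2 and TAM-16 as v3p6, so array and print cannot be told apart.

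For Cd81 in TAM the log2 ratios were -0.19 on TAM-trial and 0.14 on TAM-16, and the 95% confidence interval of the mean of -0.02 ± 0.24 (SD, n = 2) ran from -0.95 to 0.90. For Id3 they were -0.40 on TAM-trial and -0.02 on TAM-16, and the 95% confidence interval of the mean of -0.21 ± 0.27 (SD, n = 2) ran from -1.47 to 1.05. None of the 4 genes passed the threshold here, even unadjusted (lowest p 0.127, for Fcrls), nor did any of the 8905 genes and features (0 of 8905, 0%, against 497 or 5.58% at an unadjusted p under 0.05, all in limma). The median over all genes in this comparison was -0.127, so values this close to 0 also lie close to the middle of the arrays.

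In PEC, Fcrls had log2 ratios of LPS over untreated of -0.25 on PEC1 and -0.39 on PEC2, with a mean of -0.32 ± 0.10 (SD, n = 2). Axl stayed nearest to 0, at -0.14 on PEC1 and 0.01 on PEC2, with a mean of -0.06 ± 0.10 (SD, n = 2). Cd81 and Id3 differed in sign between the arrays. Cd81 was at -0.63 on PEC1 and 0.44 on PEC2, and Id3 at -0.53 on PEC1 and 0.78 on PEC2. Their means were -0.10 ± 0.76 for Cd81 and 0.12 ± 0.92 for Id3 (SD, n = 2). The widest of the 4 intervals was that of Fcrls, from -1.65 to 1.01, so the 2 arrays leave changes in either direction within it. None of the 4 passed the threshold, against 1 of 8905 genes and features (0.0112%), and their lowest adjusted p in limma was 0.977 (unadjusted 0.6), that of Fcrls.

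The LPS response in TAM minus that in PEC was tested as a contrast in the same fit. All 4 of its arrays had the same channel order, so a constant dye effect cancels. The difference in log2 ratios was -0.67 for Fcrls (95% confidence interval -2.54 to 1.21), -0.63 for Axl (-2.33 to 1.08), -0.33 for Id3 (-2.11 to 1.45) and 0.07 for Cd81 (-1.23 to 1.37). None of the 4 passed the threshold, with an adjusted p of 0.998 each in limma, and neither did any other gene or feature (0 of 8905, 0%, against 612 or 6.87% at an unadjusted p under 0.05). The intervals reach beyond 1 log2 unit in both directions for each gene, so equal responses were not shown either.

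The design forms a loop. The ratio of TAM with LPS over PEC with LPS was measured directly on TAM1 and TAM7, and it also follows from the untreated ratio plus the LPS response in TAM minus that in PEC. For Fcrls the direct value of 2.78 and the indirect value of 2.30 differed by 0.48. The direct and indirect values were 1.60 and 3.46 for Cd81, 0.22 and 1.56 for Axl, and 0.38 and 2.13 for Id3. The direct value thus lay below the indirect one by 1.86 (Cd81), 1.34 (Axl) and 1.74 (Id3) log2 units. Over all genes and features the median size of this gap was 0.759, and 13.2% were as far apart as Cd81, 14.8% as Id3, 25.3% as Axl and 66.6% as Fcrls.

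The direct mean with LPS minus the untreated mean was -1.79 for Cd81, -1.97 for Axl, -2.07 for Id3 and -0.19 for Fcrls. The arrays of LPS within a cell type gave differences between -0.67 and 0.07 for the same 4 genes. The untreated values enter both the indirect route and the choice of the genes, so the gap was not tested.

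**Figure D3:**
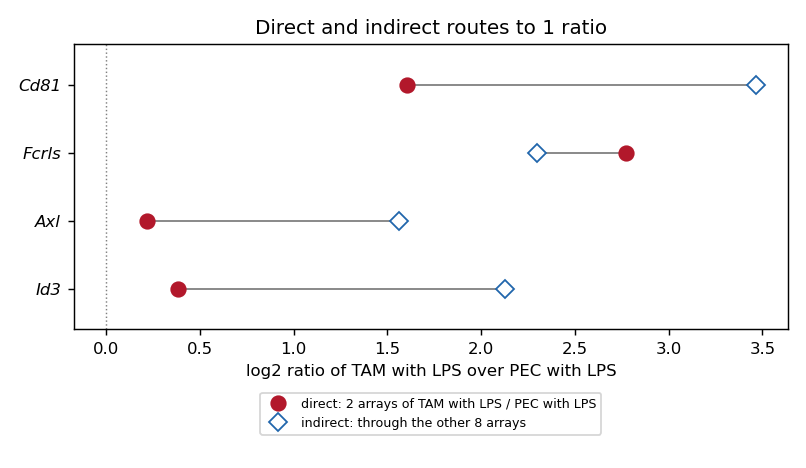
Log2 ratio of TAM with LPS over PEC with LPS (horizontal axis) for the 4 genes, as the mean of the 2 arrays that measured it (filled circles) and as the sum through the other 8 arrays (open diamonds). The routes lie 0.48 apart for Fcrls and between 1.34 and 1.86 apart for Axl, Id3 and Cd81, with the direct value lower for these 3.

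The relatives and pathways of each gene were taken next, from lists that leave out the 4 genes. Over all genes and features 0.0674% passed the threshold with LPS and 0.46% in untreated cells. Calls were thus rare, and 0 calls in a short list says little about that list. For Axl, its ligand Gas6 had a mean log2 ratio of TAM over PEC of -0.29 with LPS (-0.54 to -0.03 over 2 arrays) and 0.47 in untreated cells (-0.36 to 1.33 over 4 arrays). Tyro3, the sister receptor of Axl, was at -0.16 with LPS and at 0.73 in untreated cells, where all 4 arrays were above 0 (0.33 to 1.16) and the adjusted p was 0.34 in limma. Of the 10 measured genes of the Axl receptor system, 0 passed the threshold in either comparison of TAM over PEC. Their median was -0.328 with LPS and 0.301 in untreated cells, against 0.080 and -0.022 over all genes. Ptpn11, a phosphatase of receptor signalling, had the highest untreated value of the list, 0.90 with an adjusted p of 0.28. In TAM, Gas6 was at -1.19 for LPS over untreated, with both arrays below 0 (-1.66 and -0.73) and an adjusted p of 0.828 in limma. Mertk and Pros1 were not analysed here.

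AXL works in the clearance of apoptotic cells, and 27 of 41 genes of that list were measured. In untreated cells 1 rose in TAM (0.124% of all genes and features did) and 1 fell (0.337% of all), with a list median of -0.312 against -0.022 over all genes. C1qa, a subunit of complement C1q that coats dying cells, rose to a log2 ratio of 2.12 (adjusted p 0.0412), and P2ry2, a receptor for nucleotides that dying cells release, fell by 1.80 on the log2 scale (adjusted p 0.0352). Both calls were lost when any 1 of the 10 arrays was left out, with adjusted p up to 0.147 for C1qa and 0.12 for P2ry2. Mfge8, another bridge to phosphatidylserine, had -4.65 with LPS and -2.68 in untreated cells (adjusted p 0.0529 and 0.0595, in limma). With LPS none of the 27 passed the threshold and 22 were below 0, with a median of -0.711 against 0.080 over all genes.

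Among tetraspanins, 15 of 29 genes besides Cd81 were measured. None passed the threshold in either comparison of TAM over PEC, and the medians were -0.038 with LPS and -0.135 in untreated cells. The untreated means of these 15 ran from -2.14 for Cd53 to 0.71 for Tspan12, and that of Cd81 was 3.39. Cd82 was at -0.04 with LPS and 0.46 in untreated cells, Cd151 at -0.84 and -0.14, Cd63 at -1.70 and -0.41, and Cd37 at -0.67 and -0.41. Cd53, a tetraspanin of leukocytes, had -2.10 with LPS and -2.14 in untreated cells, below 0 on all 6 arrays, with adjusted p of 0.264 and 0.0595 in limma. Of 16 measured partners of CD81 (integrins, ERM proteins and others), 0 passed the threshold in either comparison. Itgb1, the beta 1 integrin chain, had -1.96 with LPS and -1.85 in untreated cells (adjusted p 0.386 and 0.149 in limma).

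For Fcrls the relatives are the Fc receptors. Of 14 measured Fc receptors and their signalling proteins, 0 passed the threshold in either comparison of TAM over PEC, with medians of -0.201 with LPS and 0.054 in untreated cells, where the means ran from -1.63 for Btk to 1.10 for Fcgr1. Fcgr1, the high-affinity IgG receptor, was at -1.12 with LPS, with both arrays below 0, and at 1.10 in untreated cells, with all 4 arrays above 0 (adjusted p 0.551 and 0.232 in limma). Fcer1g, the shared signalling chain, was at -0.79 with LPS and 0.86 in untreated cells, and Fcgr3, a low-affinity IgG receptor, at -1.75 and -0.90. Among 12 measured scavenger receptors, 1 fell in untreated TAM (0.337% of all genes and features did). This was Cd5l, which fell by 3.83 on the log2 scale (adjusted p 0.0352 in limma). Its values were -0.93 on TAM-b and between -5.05 and -4.44 on the other 3 arrays, and its call held in 1 of the 10 fits that left out an array, the one without TAM-b. Cd68, a scavenger receptor of macrophage endosomes, was at -3.50 with LPS and -1.74 in untreated cells (adjusted p 0.199 and 0.241 in limma). Fcgr2b and Msr1 were not analysed here.

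Among the relatives of Id3 the values lay on both sides of 0. Id2 fell in untreated TAM by 2.30 on the log2 scale (adjusted p 0.0412 in limma), with all 4 arrays between -3.07 and -1.65, while Id3 was at 2.46. With LPS, Id2 was at -2.69 (adjusted p 0.14) with both arrays below -2.6, and Id3 at 0.38. Id1 was at 0.27 with LPS and 0.50 in untreated cells. Id4 was at 1.77 with LPS and 1.12 in untreated cells, where its arrays ran from -1.41 to 2.39. Tcf3, which encodes the E proteins that ID proteins bind, was at -0.10 with LPS and 0.76 in untreated cells (adjusted p 1 and 0.287 in limma). Of 20 measured ID and basic helix-loop-helix genes, 0 rose and 2 fell in untreated TAM, Id2 and Bhlhe40, a repressor that binds E-boxes. Bhlhe40 fell by 2.20 on the log2 scale (adjusted p 0.041). The call of Id2 held in 2 of the 10 fits that left out an array, and that of Bhlhe40 in 0. Across the 41 genes and features called in that comparison, 11 were higher (0.124%) and 30 lower (0.337%). The higher ones include Cd81, Fcrls, Axl and Id3, which the lists leave out.

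Of 30 measured genes of BMP and TGF-beta signalling, which acts on Id genes, 0 passed the threshold in either comparison of TAM over PEC. The medians were 0.086 with LPS and -0.051 in untreated cells. The BMP signal carriers Smad1 and Smad5 were at -0.52 and -0.35 with LPS and at -0.13 and 0.01 in untreated cells. The inhibitors Smad6 and Smad7, which BMP signalling itself induces, were at 0.93 and -0.39 with LPS and at -0.04 and -0.36 in untreated cells. Tgfbi, a matrix protein induced by TGF-beta, was at 2.90 with LPS and 1.63 in untreated cells, above 0 on all 6 arrays, with adjusted p of 0.101 and 0.139 in limma. Tgfb1 itself was at -1.36 with LPS and 0.59 in untreated cells (adjusted p 0.831 and 0.688 in limma).

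For LPS over untreated within a cell type, none of the measured genes of these pathways passed the threshold. The medians in TAM and in PEC were -0.258 and 0.608 for the clearance of apoptotic cells, -0.301 and 0.447 for Fc receptors, -0.248 and 0.338 for scavenger receptors, -0.288 and 0.002 for tetraspanins, and -0.331 and 0.235 for ID and basic helix-loop-helix genes, against -0.127 and -0.037 over all genes. They were 0.332 and 0.213 for the Axl receptor system, 0.398 and 0.413 for the partners of CD81, and -0.048 and -0.074 for BMP and TGF-beta signalling. Fcer1g was at -0.16 in TAM (-0.69 and 0.38) and 2.26 in PEC (1.96 and 2.56), with adjusted p of 0.97 and 0.28 in limma. Id2 was at -1.13 in TAM (-2.24 and -0.03) and 1.35 in PEC (1.05 and 1.65), and the difference of -2.48 had an adjusted p of 0.719 in limma. Id3, for comparison, was at -0.21 in TAM and 0.12 in PEC.

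**Figure D4:**
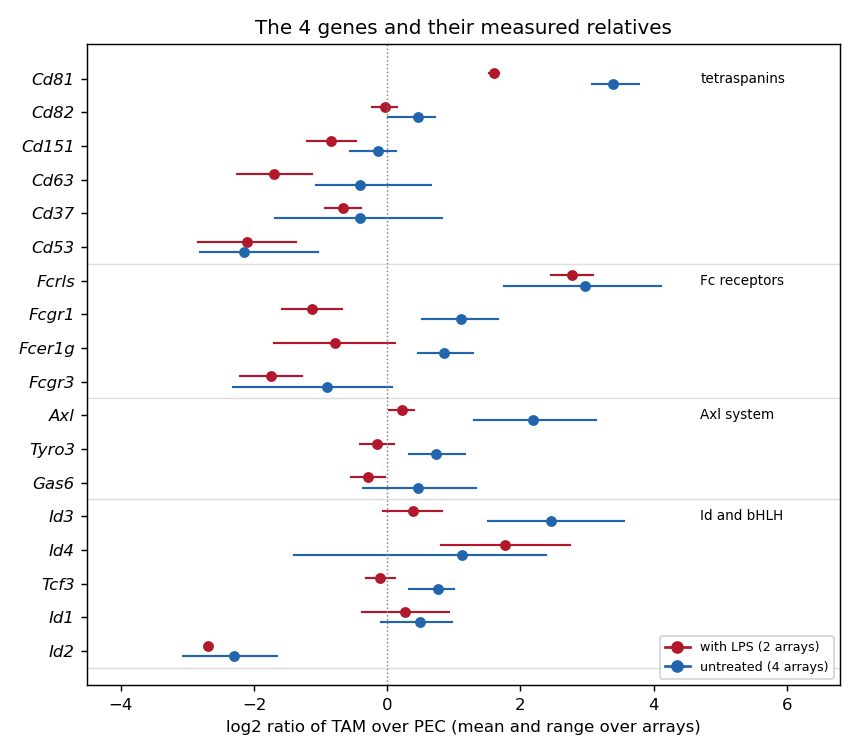
Mean log2 ratio of TAM over PEC (horizontal axis) of the 4 genes and their measured relatives, with LPS (upper point of each pair, 2 arrays) and in untreated cells (lower point, 4 arrays); lines span the lowest to the highest array. Cd81 and Fcrls lie right of all drawn members of their families, and Id2 lies at -2.69 with LPS and -2.30 in untreated cells, left of 0 where Id3 is at 0.38 and 2.46.

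Markers of the cell types that the preparations could hold were taken as lists. Fibroblast and stroma genes had a median of 0.48 with LPS (12 of 20 above 0) and 0.678 in untreated cells (15 of 20 above 0). On single arrays their medians ran from 0.43 to 0.50 with LPS and from 0.179 on TAM-3 to 1.58 on TAM-8 in untreated cells. Igfbp4 was the 1 stroma gene of 20 that rose in untreated TAM (0.124% of all genes and features did). It was at 2.20 (adjusted p 0.0412 in limma), a call that held only without TAM-b among the fits that left out an array. Sparc, a matrix protein of fibroblasts and also of microglia, was at 1.05 with LPS and 4.23 ± 3.46 (SD, n = 4) in untreated cells, with adjusted p of 1 and 0.123 in limma.

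Neutrophil genes had a median of 0.192 with LPS (6 of 11 above 0) and 0.817 in untreated cells (8 of 11). Genes of macrophage identity had -1.123 with LPS (1 of 13 above 0) and -0.658 in untreated cells (4 of 13), while microglia and tissue-resident macrophage genes had -0.286 with LPS (4 of 11) and 0.339 in untreated cells (7 of 11). Peritoneal macrophage genes had -1.795 with LPS (3 of 14) and -1.912 in untreated cells (3 of 14). Of these, 5 fell in untreated TAM (Saa3, Fcna, Retnla, Slpi and Cd5l, against 0.337% of all genes and features). The marker lists were chosen with earlier results of these data known, so this count is a description and no test. The calls of Saa3, Fcna and Retnla held whichever array was left out, and that of Slpi was lost without TAM-2R, TAM-3 or TAM-8. Median log2 ratios of endothelial, T and NK cell, B cell and epithelial genes in untreated cells were 0.149, -0.046, -0.498 and -0.117. With LPS they were 0.006, 0.238, 0.076 and 0.43. Of the epithelial and tumour cell genes, 9 of 11 were above 0 with LPS and 4 of 11 in untreated cells. Ratios hold no level, so whether a marker was at 0 in a preparation was not measured. The part of these cells in the values of Cd81, Fcrls, Axl and Id3 was not tested.

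Genes with the most similar values over the 10 arrays were ranked by the cosine, which does not change when an array is turned. The 4 genes were much alike, with cosines from 0.83 (Fcrls and Id3) to 0.945 (Axl and Id3), as follows in part from their choice on 4 of these arrays. For Id3 the highest cosine among 6794 genes was 0.977 with Sema4a, a semaphorin of immune cells, at 0.02 with LPS and 1.26 in untreated cells. For Axl it was 0.966 with Ccn1, a matricellular protein, at 0.76 with LPS and 2.55 in untreated cells. For Cd81 it was 0.938 with Mcm5, a subunit of the replicative helicase, and then 0.934 with Id3 and with Igfbp4, which binds insulin-like growth factors. For Fcrls it was 0.926 with Igfbp4, then 0.921 with Cd81 and 0.911 with Pld4, a nuclease of phagocytes. Aif1, which encodes the macrophage and microglia protein IBA1, was among the 5 most similar of both Fcrls (0.905) and Axl (0.926), at 1.42 with LPS and 2.76 in untreated cells. A rank correlation in place of the cosine kept 3 of 5 genes for Id3, 1 for Cd81, 1 for Axl and 0 for Fcrls, so these orders are not firm.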

How the data were processed

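The values are log2 ratios of channel 2 over channel 1 as deposited by the authors, 1 for each of 9596 features on 10 arrays, with 0 sample columns left unused. How the images were read, corrected and normalized is not stated in the labels, nor are the dyes or the log base. Base 2 was assumed, since 11.687, the value farthest from 0, would otherwise be an implausibly large ratio. Channel intensities were not used here, so dim spots could not be filtered.

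Of the features, 7486 had 1 gene symbol in the platform table, 483 several and 1627 none. Features of 1 gene were averaged, which gave 8905 genes and features. Arrays with exchanged channels were turned. The reading of channel 2 over channel 1 was kept because the median of the LPS response genes lay above 0 on PEC1 and PEC2, so the direction of that list was set by this rule.

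One model was fitted to all arrays (limma 3.58.1, R 4.3.3, lmFit then eBayes), with 1 mean per direct comparison, 6 residual and 3.841 prior degrees of freedom, two-sided p-values and Benjamini-Hochberg adjustment over 8905; it was tested on simulated data. The threshold was an adjusted p of 0.05. SDs are over arrays, standard errors and intervals from the fit. Tables were made with Python 3.11.15 and pandas 2.3.3.

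The 4 genes and all gene lists were chosen with earlier results of these data known. Named besides the 4 were, by rule, fixed close relatives where measured, list genes past the threshold, the 3 of each pathway list with the largest moderated t in untreated cells, and the 5 most similar genes by cosine; Tspan12 and Sparc, the ends of a list's range, were named after their values were seen. Alternatives were scaled or centred arrays, place medians subtracted, a dye term, exchanged arrays not turned, a loop fit, fewer arrays, 1 print version, single features, each array left out, and a rank correlation for the similar genes.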

Additional observations from a re-analysis of the deposited data

Results flagged for a closer look

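None of Cd81, Fcrls, Axl and Id3 was picked out by the checks below, which covered 54 genes named among relatives, pathway genes and similar genes.

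For 12 genes both arrays of LPS in TAM lay on one side of 0 and both of LPS in PEC on the other, so each had an LPS response in TAM minus that in PEC that was marked. The difference in log2 ratios was 1.199 for Tyro3 and 0.488 for Spr. It was -3.296 for Cd68, -2.479 for Id2, -1.713 for Fcgr1, -1.521 for Pld4, -1.418 for Aif1, -1.083 for Bhlhe40, -0.971 for Tsg101, -0.867 for P2ry2, -0.815 for Acvrl1 and -0.809 for Tcf3. The 12 are 22.2% of the 54 genes, and 14.3% of all 8905 genes and features were placed this way. The difference was tested in limma, and no adjusted p was under 0.719 for these 12 genes.

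For 3 genes both arrays of TAM over PEC with LPS lay opposite to all 4 untreated arrays. The mean with LPS minus the untreated mean was -2.227 for Fcgr1, -1.914 for Lgals3bp and 2.099 for Hey1. The 3 are 5.56% of the 54 genes, against 4.12% of all genes and features. These differences were not tested.

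In untreated TAM over PEC, 3 single values lay far from the other 3 arrays: Cd5l at -0.933 on TAM-b (others -5.046 to -4.436), Lgals3bp at 0.037 on TAM-b (others 1.37 to 1.62) and Hey1 at -4.621 on TAM-2R (others -0.854 to -0.573). Chance marks about 1 in 20 groups of arrays this way.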

How the results depend on the processing

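The number of arrays limits the precision, and depth or signal over background was not available. No paired analysis was possible because the arrays carry names of their own and no numbering shared between comparisons. Every value of the 4 genes in untreated TAM over PEC kept its sign in 76 of 76 alternatives. The genes were chosen for high values on these same arrays, so the kept signs are no independent support. With TAM-2R not turned the means were 1.65 (Cd81), 1.25 (Fcrls), 0.62 (Axl) and 0.68 (Id3). For TAM over PEC with LPS, 73 of 80 values kept sign and side of the threshold, 4 gained a call and 3 changed sign. With the other comparisons 69 (LPS in PEC), 72 (LPS in TAM) and 71 (their difference) of 80 did so and the rest changed sign, all without passing the threshold; the cause was not tested.

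The genes and features called numbered 41 in untreated TAM over PEC, 6 in TAM over PEC with LPS, 1 for LPS in PEC, 0 for LPS in TAM and 0 for the difference of the responses. At an unadjusted p under 0.05 limma gave 497 for LPS in TAM and 612 for the difference. With scaled arrays the first 4 counts were 12, 97, 3 and 1, of the 4 genes 1 was called with LPS (Fcrls, adjusted p 0.0162), and Cd81 for LPS in TAM was at 0.011. With centred arrays Cd81 for LPS in TAM was at 0.08. With place medians subtracted 16 were called with LPS, of the 4 genes 1 (Fcrls, adjusted p 0.0364), and 5 for LPS in PEC, where Fcrls was at 0.073, Axl at 0.04 and Id3 at -0.362. With a dye term 17 were called in untreated TAM over PEC, Axl for LPS in PEC was at 0.24, and for LPS in TAM Cd81 was at 0.04 and Id3 at 0.41. With the exchanged arrays not turned 0 were called in either comparison of TAM over PEC and 2 for LPS in PEC; with LPS, Cd81 was then at -0.077, Id3 at -0.446 and Fcna at 0.068. The loop fit, which ties the arrays with LPS to the untreated ones, called 137 with LPS, of the 4 genes 2 (Cd81 at 2.14, adjusted p 0.035, and Fcrls at 2.64, adjusted p 0.0256), and 28 for LPS in PEC. Its with-LPS ratios draw on the untreated arrays on which the 4 genes were chosen, so these calls of Cd81 and Fcrls are no test of them. In that fit Cd81 was at 0.435 and Axl at 0.319 for LPS in PEC, and Cd81 at -0.991 for the difference. On each comparison's own arrays 2 were called in untreated TAM over PEC, and 0 in TAM over PEC with LPS and 0 for LPS in PEC; without the untreated arrays in the fit 2 were called for LPS in PEC. On print v3p6 alone 0 were called in any comparison; Cd81 and Axl were at 0.438 and 0.006 for LPS in PEC and at 0.143 and 0.086 for LPS in TAM, and Cd81, Fcrls and Axl at -0.295, 0.179 and 0.08 for the difference.

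With each array left out in turn, the counts called ran from 6 (without TAM-8) to 24 in untreated TAM over PEC, from 3 to 11 (without TAM-2R) with LPS, from 1 to 85 (without PEC1) for LPS in PEC, from 0 to 3 (without TAM-16) for LPS in TAM and from 0 to 47 (without PEC1) for the difference; without PEC2 they were 48 for LPS in PEC and 19 for the difference. In the tested comparisons none of the 4 genes was called in these fits. For untreated TAM over PEC this was not counted, since the genes were chosen there. The ranges of values that changed sign were, with LPS, -0.065 to 0.828 for Id3; for LPS in PEC, -0.631 to 0.438 for Cd81, -0.135 to 0.006 for Axl and -0.53 to 0.777 for Id3; for LPS in TAM, -0.192 to 0.143 for Cd81 and -1.465 to 0.086 for Axl; and for the difference, -0.463 to 0.606 for Cd81, -1.446 to 0.111 for Fcrls, -1.401 to 0.15 for Axl and -0.983 to 0.324 for Id3.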
